A study of Mus musculus with 4 samples.

Results

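The transcripts described here are those of the enzymes that write, read and erase ADP-ribose and of the repair of damaged bases and single-strand breaks. They were measured in neural stem and progenitor cells treated with olaparib, a drug that inhibits the enzymes PARP1 and PARP2. The members are 40 genes taken from a fixed list of names, of 19937 genes that a probe set of the array names alone, and each was read from its brightest probe set. Of the 40, 38 had a probe set of their own, and 37 passed a filter on dim genes and were tested. The cells were primary neurospheres from the lateral walls of the lateral ventricles of adult C57BL/6 mice aged 9 to 12 weeks. All of them were transfected with non-targeting siRNAs and transduced with Pax6, which encodes a transcription factor that turns such cells towards neurons. The olaparib group (2 arrays) was differentiated in the presence of 100 nM olaparib with 0.01% DMSO, and the DMSO group (2 arrays) in 0.01% DMSO alone. In both groups this differentiation lasted 10 h, by plating on laminin without growth factors, before RNA was taken. The second array of each group is labelled a biological replicate. The sources used here do not give how many mice stood behind a culture, so the p-values measure the spread between these samples.

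PARP1 and PARP2 bind breaks in DNA and build chains of ADP-ribose from NAD on themselves, on histones and on other proteins. The chains draw in XRCC1 and its partners, which fill and seal the break, and hydrolases such as PARG then remove them. Base excision repair feeds the same route: a glycosylase cuts out the damaged base, an AP endonuclease cuts the backbone, and a polymerase and a ligase close the gap. Proliferating neural progenitors meet oxidised bases and replication breaks, and olaparib holds PARP1 and PARP2 on broken DNA. The comparison asked whether the transcripts of this machinery differed between cells differentiated in olaparib and cells differentiated in DMSO alone. The arrays do not measure the activity of PARP1 or PARP2.

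No member passed the test in either direction. In limma, 0 of 37 members had an adjusted p under 0.05 over the 13956 genes tested, where the background was 6.22% (397 genes or 2.84% higher and 471 or 3.37% lower with olaparib). Relaxing the adjusted p to 0.1 also gave 0, against 9.47% of all genes tested. The smallest adjusted p of a member was 0.166, for Apex1. At an unadjusted p under 0.05 there were 3 members (8.11%), against 19.1% of all genes tested. They were Apex1, the eraser gene Adprhl2 and the glycosylase gene Mpg, all on the higher side, where the background was 9.18%, and 0 were on the lower side, where it was 9.88%. The median difference, olaparib minus DMSO on the log2 scale, was -0.03 over the 37 members and 0.0013 over all genes tested. The differences ran from -0.13 for Parp6 to 0.27 for Apex1, and 9.47% of all genes tested differed by more than any member did.

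The intervals show how small a difference in array signal the fits leave room for. In a dim member the difference in RNA can be larger than that in signal. The 95% confidence interval of limma lay within 1.5-fold of no difference in all 37 members, against 95.8% of all genes tested, and within 1.3-fold in 36 (97.3%), against 78.1% of all genes tested. Apex1 was the exception at 1.3-fold. In a fit over every probe set past that filter, 21704 in all, whose intervals are wider, 37 and 34 members lay within these limits, 0 members passed, and 0.086% of the genes did. These intervals rest on a spread estimated from 2 residual degrees of freedom and a prior shared across genes, worth 18.1 degrees of freedom in the first fit and 5.25 in the second. For a single gene an exact permutation test of 2 against 2 arrays cannot go below p = 0.333, two-sided. The median SD within a group was 0.06 for olaparib and 0.05 for DMSO over the members, against 0.08 and 0.05 over all genes tested.

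**Figure D1:**
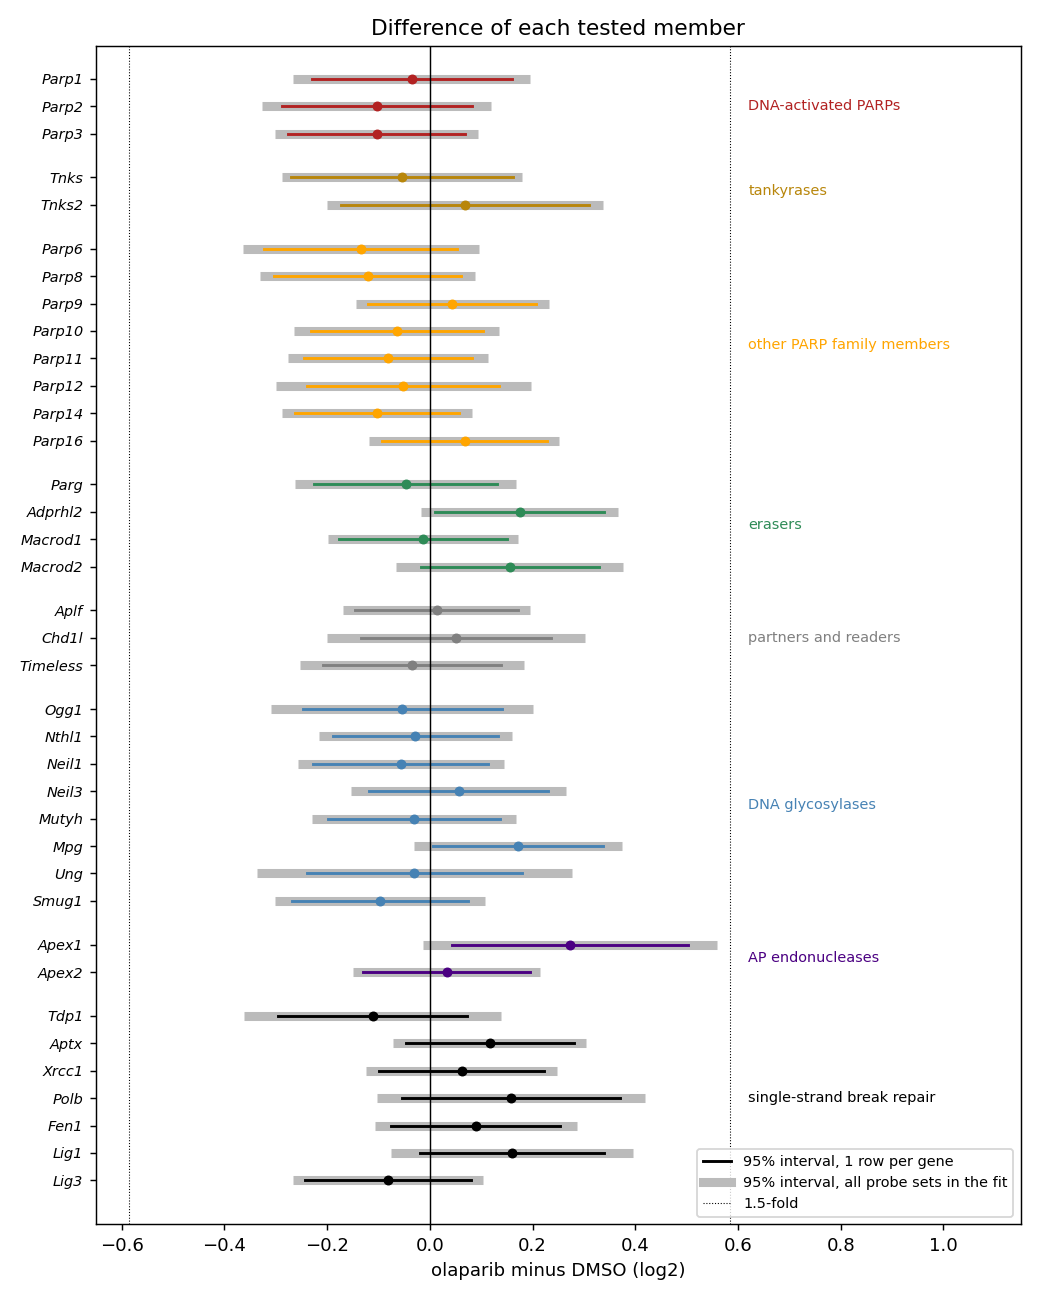
Difference of each tested member, olaparib minus DMSO on the log2 scale (horizontal axis), by role. Points are differences, thin lines 95% intervals with 1 row per gene in the fit, grey bars those with all probe sets in the fit, and dotted lines mark 1.5-fold. All 37 thin lines stay inside the dotted lines, and 3 of them, of Adprhl2, Mpg and Apex1, leave out 0.

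Signal over background limits some members. Each value is the deposited log2 signal of a probe set, which is not comparable between genes. For orientation, 36 genes of tissues unrelated to brain had a median of 6.49, a 75th percentile of 6.63 and a highest value of 7.77 (Apoa2), with the next at 7.09 (Gcg). Among the 38 measured members, the dimmer group lay under 6.63 in 5 (Neil1, Neil2, Neil3, Ung and Smug1), under 7.09 in 16, and under 7.77 in 33. The remaining 5, Parp1, Tnks, Tnks2, Apex1 and Polb, lay above it. A difference in a dim member can be understated.

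Promoters of 3 members are shown because Parp1 and Parp2 encode the drug's targets and Apex1 had the largest difference. Each is a window of 300 bases around a RefSeq start on GRCm38.p6, on the plus strand. It holds 250 bases before and 50 after the first base of the gene for Parp1 and Apex1, and 231 before and 69 after it for Parp2. The windows lie at chr1:180568641-180568940 for Parp1, chr14:50807666-50807965 for Parp2 and chr14:50924699-50924998 for Apex1. Capitals mark GGGCGG, the GC box, on either strand.
Parp1: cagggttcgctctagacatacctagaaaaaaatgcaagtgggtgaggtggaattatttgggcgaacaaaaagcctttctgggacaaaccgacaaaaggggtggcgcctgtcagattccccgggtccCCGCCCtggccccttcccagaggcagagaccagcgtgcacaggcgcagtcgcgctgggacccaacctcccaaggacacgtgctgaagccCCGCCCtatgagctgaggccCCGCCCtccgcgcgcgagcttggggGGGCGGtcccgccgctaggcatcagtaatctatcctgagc
Parp2: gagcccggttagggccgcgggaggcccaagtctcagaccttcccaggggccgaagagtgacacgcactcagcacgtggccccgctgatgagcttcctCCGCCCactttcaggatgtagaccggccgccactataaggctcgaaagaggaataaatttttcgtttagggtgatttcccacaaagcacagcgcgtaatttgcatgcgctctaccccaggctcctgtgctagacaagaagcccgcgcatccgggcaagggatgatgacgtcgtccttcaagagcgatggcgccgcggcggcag
Apex1: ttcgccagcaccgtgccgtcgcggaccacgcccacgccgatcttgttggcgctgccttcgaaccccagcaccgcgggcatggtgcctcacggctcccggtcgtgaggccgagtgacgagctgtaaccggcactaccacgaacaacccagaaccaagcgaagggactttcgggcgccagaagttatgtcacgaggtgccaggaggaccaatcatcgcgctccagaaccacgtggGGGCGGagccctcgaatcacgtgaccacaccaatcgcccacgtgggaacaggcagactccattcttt
The GC box occurs 4 times in the Parp1 promoter and 1 time each in those of Parp2 and Apex1. It is present in 23 of the 42 promoters listed for 33 members (54.8%) and in 35.7% of all 32851 promoters. TATAAA, the TATA box, is present in 2 member promoters (4.76%), against 13.6% of all, and the median number of CG pairs is 22.5 in member promoters against 7 in all. CCAAT occurs in 40.5% of member promoters and 37.4% of all, with 2 copies in that of Apex1. No transcript of the 3 genes passed the test, so these letters describe the promoters and not a response.

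The DNA-activated PARPs come first, as olaparib acts on them. Parp1 encodes the enzyme that makes most of the poly(ADP-ribose) at DNA breaks. Its signal was 7.93 and 8.09 in the olaparib arrays, against 8.06 and 8.03 in the DMSO arrays. The olaparib arrays lay on either side of the DMSO pair, and the difference was -0.04 (SE 0.09, 95% interval -0.23 to 0.16, adjusted p = 0.913), a fold of 0.976 with an interval of 0.852 to 1.12. Parp2, the second break-activated enzyme, had 7.61 and 7.78 with olaparib, against 7.81 and 7.79 with DMSO. Both olaparib values were the lower ones, although the closest 2 arrays were almost level, and the difference was -0.10 (SE 0.09, 95% interval -0.29 to 0.08, adjusted p = 0.622). Parp3, which adds single ADP-ribose units at double-strand breaks, had 7.51 and 7.53 with olaparib, against 7.59 and 7.66 with DMSO. The groups did not overlap, and the difference was -0.10 (SE 0.08, 95% interval -0.28 to 0.07, adjusted p = 0.579). All 3 differences thus pointed down and none passed the test.

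**Figure D2:**
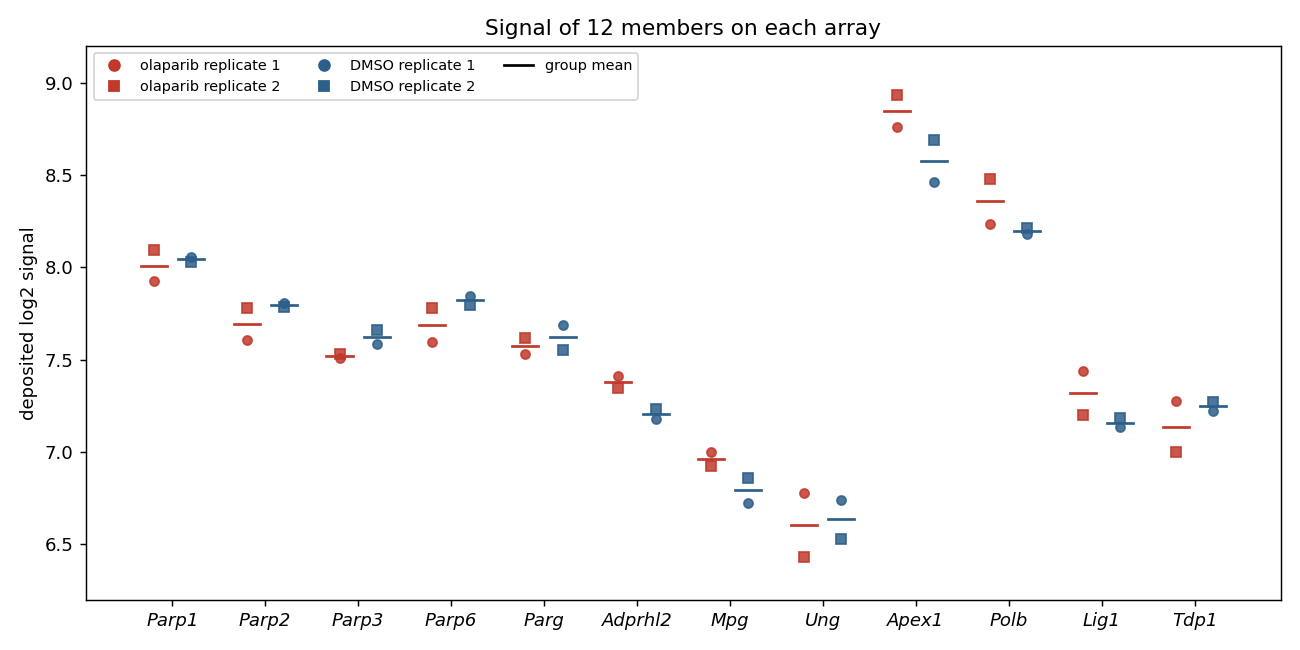
Deposited log2 signal (vertical axis) of 12 members on each array, olaparib in red and DMSO in blue, with circles for replicate 1, squares for replicate 2 and bars for group means. Heights are not comparable between genes. Apex1, Adprhl2 and Mpg show both olaparib points above both DMSO points, while Parp1 and Ung show overlapping groups.

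The tankyrases, poly(ADP-ribose) polymerases of telomeres and of Wnt signalling that lack DNA-binding domains, pointed in opposite directions. Tnks had 8.87 and 8.86 with olaparib, against 8.96 and 8.89 with DMSO (difference -0.05, SE 0.10, adjusted p = 0.867). Tnks2 had 9.78 and 9.90 with olaparib, against 9.71 and 9.82 with DMSO (difference 0.07, SE 0.12, adjusted p = 0.848). The groups of Tnks2 overlapped and those of Tnks did not.

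Among the other PARP family members, 8 of 9 had a probe set of their own, all 8 were tested and 0 passed. Most of these enzymes transfer single ADP-ribose units. Parp6 and Parp8, 2 such enzymes, had the lowest differences of the group. Parp6 had 7.59 and 7.78 with olaparib, against 7.85 and 7.80 with DMSO (difference -0.13, SE 0.09, 95% interval -0.32 to 0.05, adjusted p = 0.477). Parp8 had 7.70 and 7.81 with olaparib, against 7.87 and 7.88 with DMSO (difference -0.12, SE 0.09, adjusted p = 0.523). In both, the olaparib arrays were the lower ones without overlap. The same held for Parp14, a large macrodomain PARP of interferon and cytokine responses, with 6.84 and 6.92 under olaparib, against 6.99 and 6.97 under DMSO (difference -0.10, adjusted p = 0.541). It held for Parp11, a PARP of the nuclear envelope, with 7.16 and 7.06 under olaparib, against 7.22 and 7.16 under DMSO (difference -0.08, adjusted p = 0.669), although the closest 2 arrays were almost level. Parp16, an enzyme of the endoplasmic reticulum membrane, was the member of the group with both olaparib arrays higher, at a difference of 0.07 (adjusted p = 0.741). The groups overlapped in Parp9 (0.04), Parp10 (-0.06) and Parp12 (-0.05). Parp4, the PARP of vault particles, shares its probe set with Mphosph8 and was not measured alone.

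Over the 13 tested writers, the PARPs and tankyrases together, 10 differences were below 0 (76.9%, against 49.5% of all genes tested) and 3 above. Both olaparib arrays lay under both DMSO arrays in 7 of 13 (53.8%), where 23.9% of all genes tested showed this. The median difference was -0.06, and it stayed between -0.11 and -0.04 with any 1 array left out. The arrays also show it as the median of a writer's value minus its mean over the 4 arrays, which was -0.06 and -0.0062 in the olaparib arrays, against 0.05 and 0.02 in the DMSO arrays. Olaparib replicate 1 was therefore the low array, and olaparib replicate 2 lay close to the middle. The 13 genes were listed with results of these arrays known and share the same 4 arrays, so the count carries no test.

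The erasers divided evenly in sign, with 2 of 4 above 0 and 0 past the threshold. Adprhl2 encodes the hydrolase that removes ADP-ribose from serine. It had 7.41 and 7.35 with olaparib, against 7.18 and 7.23 with DMSO. Both olaparib arrays were the higher ones, at a difference of 0.17 (SE 0.08, 95% interval 0.01 to 0.34, unadjusted p = 0.0383, adjusted p = 0.225), and the sign held without any 1 array (0.14 to 0.21). Parg, which encodes the main hydrolase of the chains, had 7.53 and 7.62 with olaparib, against 7.69 and 7.55 with DMSO. These groups overlapped, at a difference of -0.05 (SE 0.09, 95% interval -0.23 to 0.13, adjusted p = 0.860). The macrodomain hydrolases remove the last unit from acidic residues. Macrod1 had 7.32 and 7.31 with olaparib, against 7.35 and 7.32 with DMSO, which was nearly level (-0.01, adjusted p = 0.968). Macrod2 had 7.20 and 7.28 with olaparib, against 7.18 and 6.98 with DMSO (0.16, SE 0.08, adjusted p = 0.329). That value depends on the probe set: Macrod2 has 6, of which 3 were higher and 3 lower with olaparib, at differences of 0.16, -0.25, 0.15, -0.14, 0.05 and -0.25 from the brightest to the dimmest, and their mean gave -0.05.

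Partners and readers of the chains differed by 0.05 or less. Chd1l, a chromatin remodeller switched on by poly(ADP-ribose), had 6.69 and 6.90 with olaparib, against 6.84 and 6.65 with DMSO (0.05, adjusted p = 0.853). Aplf, a reader of the chains in end joining, had 7.15 and 7.11 with olaparib, against 7.12 and 7.12 with DMSO (0.01, adjusted p = 0.967). Timeless, a replication fork protein that binds PARP1, had 6.75 and 6.57 with olaparib, against 6.74 and 6.65 with DMSO (-0.03, adjusted p = 0.904). In all 3 genes the groups overlapped.

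Of 10 DNA glycosylases, the enzymes that cut out damaged bases, 9 were measured alone and 8 tested, with 0 past the threshold and a median difference of -0.03. Mpg, which removes alkylated purines, had 7.00 and 6.93 with olaparib, against 6.72 and 6.86 with DMSO. Mpg was the glycosylase gene whose groups did not overlap, at a difference of 0.17 (SE 0.08, 95% interval 0.0053 to 0.34, unadjusted p = 0.0438, adjusted p = 0.244). Smug1, which removes uracil and oxidised uracil, had 6.53 and 6.47 with olaparib, against 6.67 and 6.53 with DMSO (-0.10, SE 0.08, adjusted p = 0.615). Among the glycosylases for oxidised bases, Neil1 had 6.55 and 6.45 with olaparib, against 6.61 and 6.51 with DMSO (-0.06, adjusted p = 0.810). Neil3, the member of that family tied to proliferating progenitors, had 6.58 and 6.45 with olaparib, against 6.51 and 6.41 with DMSO (0.06, adjusted p = 0.818). These 3 were close to the level of genes of unrelated tissues, and so was Neil2, which did not pass the filter, with 6.33 and 6.30 under olaparib, against 6.28 and 6.31 under DMSO.

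The glycosylases of other oxidised bases and of mispairs had overlapping groups. Ogg1, which removes oxidised guanine, differed by -0.05 (95% interval -0.25 to 0.14, adjusted p = 0.850), Mutyh, which removes adenine opposite that base, by -0.03 (adjusted p = 0.913), and Nthl1, which removes oxidised pyrimidines, by -0.03 (adjusted p = 0.914). Ung, the main uracil glycosylase, was named for its spread after its values were seen. It had 6.78 and 6.43 with olaparib, against 6.74 and 6.53 with DMSO. Its arrays differed more within each group than between the groups (difference -0.03, adjusted p = 0.933), and leaving out 1 array moved it between -0.20 and 0.14. Tdg, the thymine glycosylase that also acts in demethylation, shares every probe set with its pseudogene Tdg-ps2 and was not measured alone.

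The AP endonucleases hold the largest difference of the 37. Apex1, the main enzyme that cuts the backbone at a lost base, had 8.76 and 8.93 with olaparib, against 8.46 and 8.69 with DMSO. The olaparib arrays were the higher ones without overlap, but the DMSO arrays were 0.23 apart, close to the difference itself, 0.27 (SE 0.11, 95% interval 0.04 to 0.50, unadjusted p = 0.0225, adjusted p = 0.166), a fold of 1.21. Without olaparib replicate 1 it was 0.36 and passed (adjusted p = 0.0104), where 15.1% of all genes tested did. Without DMSO replicate 1 it was 0.16 (adjusted p = 0.999). Apex2, its minor relative, had 6.64 and 6.69 with olaparib, against 6.61 and 6.65 with DMSO (0.03, SE 0.08, adjusted p = 0.902).

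Genes of end processing, gap filling and ligation were mostly on the higher side. Of 7, 5 differences were above 0 (71.4%, against 50.5% of all genes tested), and 4 had both olaparib arrays above both DMSO arrays (57.1%, against 23.2%). The median was 0.09, between 0.04 and 0.13 with any 1 array left out, and 0 passed the threshold. The median deviation from the 4-array mean was 0.04 and -0.0059 in the olaparib arrays, against -0.04 and -0.05 in the DMSO arrays. As with the writers, the 7 genes were listed with results of these arrays known and share the same 4 arrays. These counts therefore carry no test.

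Polb, the polymerase that fills the gap, had 8.24 and 8.48 with olaparib, against 8.18 and 8.22 with DMSO (difference 0.16, SE 0.10, 95% interval -0.05 to 0.37, adjusted p = 0.448). Olaparib replicate 2 stood apart: without olaparib replicate 1 the difference was 0.28, and without olaparib replicate 2 it was 0.04. Lig1, the ligase of replication and of long repair patches, had 7.44 and 7.20 with olaparib, against 7.13 and 7.18 with DMSO (0.16, SE 0.09, 95% interval -0.02 to 0.34, adjusted p = 0.333). Here olaparib replicate 1 was the high array, and the difference was 0.28 without olaparib replicate 2 (adjusted p = 0.0344, where 11.5% of all genes tested passed) and 0.04 without olaparib replicate 1. Aptx, which removes AMP from failed ligations, had 7.38 and 7.41 with olaparib, against 7.30 and 7.26 with DMSO. Both pairs were tight and did not overlap, at a difference of 0.12 (SE 0.08, 95% interval -0.05 to 0.28, adjusted p = 0.480). Tdp1, which frees DNA ends from topoisomerase remnants, had 7.27 and 7.00 with olaparib, against 7.22 and 7.27 with DMSO (-0.11, SE 0.09, adjusted p = 0.578). It was -0.25 without olaparib replicate 1 (adjusted p = 0.0478) and 0.03 without olaparib replicate 2, so its sign rests on 1 array. The other 3 were Xrcc1, the scaffold that poly(ADP-ribose) draws in (0.06, adjusted p = 0.769), Fen1, the flap endonuclease (0.09, adjusted p = 0.633), and Lig3, the ligase that works with XRCC1 (-0.08, adjusted p = 0.667).

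**Figure D3:**
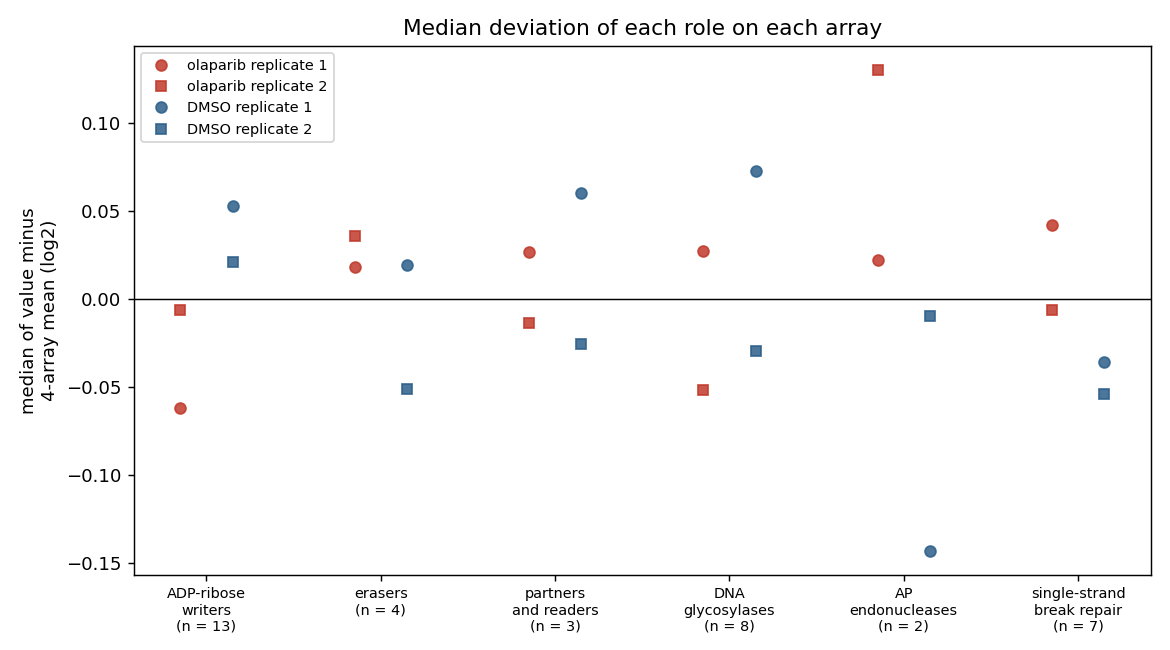
Median over the tested members of a role of the log2 value minus the gene's mean over the 4 arrays (vertical axis), 1 point per array, olaparib in red left of DMSO in blue. The writers lie lower in both olaparib arrays, and the single-strand break repair genes lie higher in both, while the arrays of the glycosylases overlap.

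Set beside each other, the roles had median differences of -0.06 for 13 writers, 0.07 for 4 erasers, 0.01 for 3 partners and readers, -0.03 for 8 glycosylases, 0.15 for 2 AP endonucleases and 0.09 for 7 single-strand break repair genes. None held a member past the threshold. Macrod2 differed by 0.16 at its brightest probe set and by -0.05 with its probe sets averaged, so the eraser median depends on that choice. The value for the 2 AP endonucleases is the midpoint of 0.27 for Apex1 and 0.03 for Apex2. Over all 37, both arrays of one group lay above both of the other in 17 (45.9%), close to the 47.1% of all genes tested. In 28 of 37 members the gap between the arrays of at least 1 group was larger than the difference between the groups. Over the members the median gap was 0.08 in olaparib and 0.06 in DMSO, beside a median difference of 0.07 in size. Over all genes tested these were 0.11, 0.07 and 0.08. The sign of the difference held in 23 members with any 1 array left out and turned in 14, among them Parp1, Parg, Ogg1, Ung and Tdp1. The shares of all genes tested with such a gap or turn were not computed, so neither count is particular to the members.

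**Figure D4:**
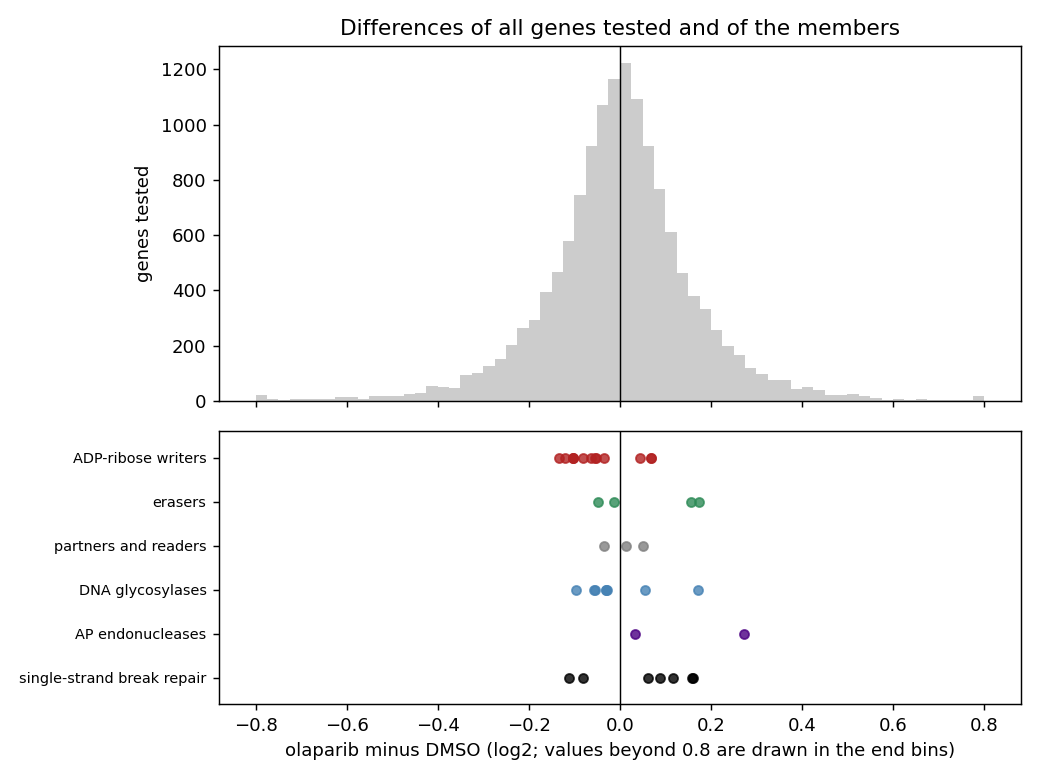
Above, the number of genes tested (vertical axis) by difference, olaparib minus DMSO on the log2 scale. Below, the members by role on the same axis, from -0.13 for Parp6 to 0.27 for Apex1. In size, 9.47% of all genes tested differed by more than any member did.

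**Figure D5:**
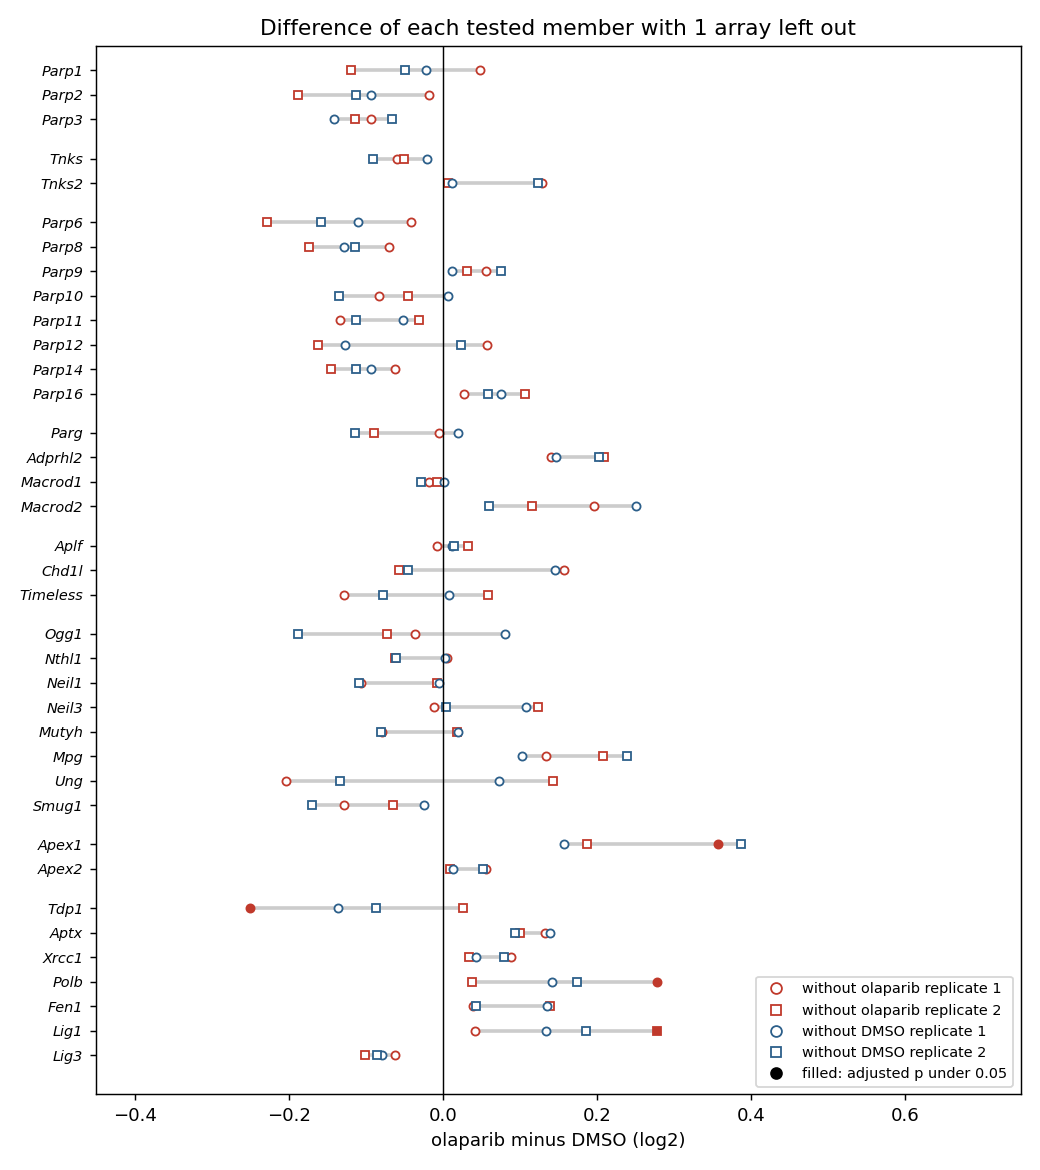
Difference of each tested member (log2, horizontal axis) with 1 array left out, red for a left-out olaparib array and blue for a left-out DMSO array. Filled symbols have an adjusted p under 0.05: Apex1, Tdp1 and Polb without olaparib replicate 1 and Lig1 without olaparib replicate 2.

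Leaving out an array shows what the count of 0 rests on. Without olaparib replicate 1 there were 3 members past the threshold (Apex1 and Polb higher, Tdp1 lower), a share below the 15.1% of all genes tested in that fit. Without olaparib replicate 2 only Lig1, higher by 0.28, was past it, again a share below that of all genes tested in that fit. Without DMSO replicate 1 and without DMSO replicate 2 there were 0, where 1.85% and 2.10% of all genes passed. In these fits the spread of the lone array is taken from the other group.

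Other genes of the same pathways, taken from fixed lists, also gave no call. Of 12 further ADP-ribosylation genes tested, 0 passed and 0 had an unadjusted p under 0.05. Hpf1, the factor that directs PARP1 and PARP2 to serine, had 8.90 and 8.79 with olaparib, against 9.02 and 9.00 with DMSO (-0.17, SE 0.10, 95% interval -0.39 to 0.05, adjusted p = 0.433). Adprm differed by 0.15 (adjusted p = 0.404). Of 21 further base excision repair genes, 0 passed, and 3 had an unadjusted p under 0.05 (14.3%, against 19.1% of all genes tested). Of the 3, 1 was higher and 2 were lower. Nudt1, which clears oxidised nucleotides before they enter DNA, had 8.16 and 8.02 with olaparib, against 8.44 and 8.35 with DMSO (-0.30, SE 0.10, adjusted p = 0.0697). Pold2, a subunit of the replicative polymerase delta, had 8.05 and 8.13 with olaparib, against 7.87 and 7.77 with DMSO (0.27, SE 0.09, adjusted p = 0.0822). In both, the groups did not overlap, and 2 and 3 of the 15 alternatives put them past the threshold, with adjusted p between 0.00489 and 0.695 for Nudt1 and between 0.0167 and 0.669 for Pold2. Of 14 genes that make or use NAD, the substrate of the PARPs, 0 passed and 0 had an unadjusted p under 0.05. Nampt, the rate-limiting enzyme of NAD salvage, differed by 0.15 (SE 0.09, adjusted p = 0.394), and Nnmt, which methylates nicotinamide, by 0.15 (SE 0.08, adjusted p = 0.309).

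Neighbouring repair and growth lists give the members a frame. Of 26 homologous recombination and Fanconi genes 0 passed, with a median of 0.02. An unadjusted p under 0.05 was seen in 4 (15.4%, against 19.1% of all genes tested). Of 18 nucleotide excision repair genes 1 passed (5.56%, against 6.22% of all genes tested). It was Ercc5, named after its value was seen, which rose by 0.52 (adjusted p = 0.00421). Of 23 S phase genes 3 rose (13.0%, against 2.84% of all genes tested) and 0 fell, with a median of 0.11. Of 17 mitosis genes 0 rose and 3 fell (17.6%, against 3.37% of all genes tested), with a median of -0.15. The members that act at replication forks, Lig1, Fen1 and Timeless, differed by 0.16, 0.09 and -0.03 without a call. Of 22 interferon response genes 4 rose (18.2%, against 2.84% of all genes tested) and 0 fell. The 4 were Ifit3, Bst2, Tap1 and Gbp3, by 0.27 to 0.45. However, 12 of the 22 differences were below 0 and the median was -0.02. The PARPs of that response, Parp9, Parp10, Parp12 and Parp14, differed by 0.04, -0.06, -0.05 and -0.10. The calls of these lists did not pass when all probe sets shared the fit, with adjusted p from 0.105 for Ercc5 upwards. As the lists were chosen with earlier results of these data known, their shares carry no test. A difference between a member and these lists was not tested.

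Some markers of cell populations passed the test, where 2.84% of all genes tested passed on the higher side and 3.37% on the lower. These lists were chosen with earlier results of these data known, so their shares carry no test. Of 12 neural stem cell and astrocyte markers 2 fell (16.7%) and 0 rose. Their median difference was -0.08, with 2 differences above 0. In signal, 10 of the 12 lay above 7.77, the highest gene of unrelated tissues. Of 9 neuroblast markers tested 3 fell (33.3%) and 0 rose, with a median of -0.27. Of 9 oligodendrocyte lineage markers 1 rose (11.1%) and 0 fell, and the list was split, with 5 differences above 0 and 4 below. With all probe sets in the fit, 2 of these 6 calls passed, the neuroblast genes Dcx and Nrep (adjusted p = 0.0448 each), and the other 4 had an adjusted p from 0.0523 (Gad2) to 0.154 (Cspg4). Microglial, ependymal and vascular markers had 0 calls and 0 members above 7.77. In bulk RNA fewer cells of a type and less RNA per cell cannot be told apart, and the part of these shifts in the members' values was not tested. Array medians ran from 6.60 to 6.68 in log2 signal, and the number of arrays limits the precision.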

How the data were processed

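Per the labels' protocols, 40 ng of total RNA was amplified and biotin-labelled for Affymetrix arrays. The deposited values of the authors are log2 signals, 1 per probe set and array. Background correction and normalization are not given in the sources used here. Of 34760 probe sets, 21640 named 1 gene, 1321 several and 11799 none listed. Names were updated through the RefSeq gene table of GRCm38.p6, which matched 19918 of 19937 genes, and each gene kept its probe set with the highest mean. The test covered the 13956 genes whose mean lay above its 30th percentile (6.42).

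Differences are olaparib minus DMSO, fitted without a pairing term with limma 3.58.1 (R 4.3.3; lmFit, then eBayes with a mean-dependent prior). Tests were two-sided, p-values were adjusted by Benjamini-Hochberg across the 13956 genes, and the threshold was 0.05. Every p in the text is from limma unless called exact. The fit was tested on simulated data with independent values and spreads drawn from its own prior, which does not test that prior. Per-array values are given for Parp1 to Parp3, for up to 4 members of each role by smallest p and for members under the filter. For 3 further lists, up to 2 genes by smallest p are named. The members and lists were chosen with earlier results of these data known. Alternatives covered filters, normalization, a floor, the variance prior, array weights, averaged probe sets, an adjusted p of 0.1 and leaving out each array. Figures were drawn with matplotlib 3.10.9.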

Additional observations from a re-analysis of the deposited data

How the results depend on the processing

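No member passed under any of the 11 alternatives that kept all 4 arrays, nor at an adjusted p of 0.1. With 1 array left out the count of members past the threshold ran from 0 to 3, and the median difference of the members, -0.03 in the full fit, from -0.0483 to 0.0122. The count of genes past the threshold, 868, was 573 without a filter on dim genes, 1311 under quantile normalization, 12 with all probe sets in the fit, 1321 at an adjusted p of 0.1, and from 258 to 2112 with 1 array left out. The causes were not tested, apart from the lower bar at 0.1. The difference of Macrod2 turned to -0.0468 with the mean of its probe sets. Of 397 member values under alternatives with all arrays, this was the 1 that turned. With 1 array left out, 20 of 148 turned and 4 passed. The ranges of the members that turned were -0.12 to 0.049 for Parp1, -0.14 to 0.0065 for Parp10, -0.16 to 0.058 for Parp12, -0.11 to 0.0199 for Parg, -0.0283 to 0.0019 for Macrod1, -0.0071 to 0.0335 for Aplf, -0.0562 to 0.16 for Chd1l, -0.13 to 0.0583 for Timeless, -0.19 to 0.0807 for Ogg1, -0.062 to 0.0055 for Nthl1, -0.0113 to 0.12 for Neil3, -0.0804 to 0.0201 for Mutyh, -0.20 to 0.14 for Ung and -0.25 to 0.0267 for Tdp1. No paired analysis was possible because the labels give no replicate numbers that tie an olaparib array to a DMSO array. Background correction could not be varied from the deposited values, and the dim members, such as the Neil genes, are limited by it.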

Other observations

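The probe sets that list Tdg, the thymine glycosylase of base excision repair, also list its pseudogene Tdg-ps2, so the transcripts cannot be told apart and no value stands for the gene alone. Of these 4 probe sets, the 3 above the filter on dim signals had both olaparib arrays below both DMSO arrays, as had 23.9% of all genes tested. The 3 list the same gene and pseudogene and share the same 4 arrays, so they are not separate observations. The brightest had 8.91 and 8.72 with olaparib, against 9.16 and 9.19 with DMSO, a difference of -0.36 (SE 0.11). The second had 8.55 and 8.48 with olaparib, against 8.91 and 8.82 with DMSO, a difference of -0.35 (SE 0.10). The third had 8.19 and 8.34 with olaparib, against 8.53 and 8.60 with DMSO, a difference of -0.30 (SE 0.10). These differences are larger in size than that of any member measured alone. In the limma fit over 21704 probe sets, their unadjusted p lay between 0.00932 and 0.0211 and their adjusted p between 0.198 and 0.265, so none passed. The fourth was dim, at 6.16 and 6.19 with olaparib, against 6.18 and 6.09 with DMSO. They were described after their values were seen.

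The probe set shared by Parp4 and Mphosph8 had 7.47 and 7.42 with olaparib, against 7.40 and 7.50 with DMSO, a difference of -0.0084 (adjusted p = 0.985 in the same fit). The second probe set of Tdp1 differed by -0.08, the same sign as the brighter one at -0.11, and the groups overlapped in both.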
